A study of Mus musculus with 9 samples.

Results

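A set of 37 mouse genes that mark T cells and natural killer (NK) cells was followed in RNAseq counts of 9 mammary gland tumors. The genes were chosen by symbol, for their known roles in lymphocytes and with earlier results of these data known, and all 37 were found by Ensembl identifier among the 35275 genes of the table. They comprise 7 genes of the T cell receptor and its CD3 partners, 4 of T cell signaling, 8 of the T cell surface and of memory cells, 2 of helper cells, 1 of regulatory cells, 10 of cytotoxic cells and 5 NK receptors. All tumors arose in Brca1Co/Co;MMTV-Cre;p53+/- mice, in which Cre recombinase is driven by the MMTV promoter, active mainly in mammary epithelium, and removes the conditional Brca1 alleles, and in which 1 Trp53 allele is lost in the germline. Once a tumor measured 4 to 5 mm, the mouse received saline, the free drug Talazoparib by vein (i.v. TLZ) or the same drug in a nano-liposome (NanoTLZ), in 5 doses of 0.33 mg/kg at 3 per week. Talazoparib inhibits PARP, an enzyme of DNA repair. There were 3 tumors per group, from A3673, A3685 and A3688 (saline), B3638, B3684 and B3700 (i.v. TLZ), and C3519, C3669 and C3698 (NanoTLZ). The free drug was dissolved with DMSO and the other groups were not, and empty nano-liposomes were not sequenced, so drug and carrier cannot be told apart in either treated group. The comparisons ask whether transcripts of tumor-infiltrating T and NK cells differed after either form of the drug.

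T cells recognize antigen through a receptor whose variable chains are held at the surface by the CD3 proteins, and binding is passed on inside the cell by the kinases Lck and Zap70 and the adaptor Lat. CD4 marks helper cells, Foxp3 is the transcription factor that defines regulatory T cells, and CD8 marks cytotoxic cells, which kill with perforin (Prf1) and granzymes. NK cells kill with the same proteins but carry no T cell receptor, and in mice the activating receptor NKp46 (Ncr1) sets them apart.

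The genes of the CD3 proteins lie side by side on chromosome 9 and their levels moved together from tumor to tumor. The promoters of Cd3g, Cd3d and Cd3e are therefore shown, with those of the cytotoxic genes Nkg7 and Prf1. Nkg7 and Prf1 were both highest in the NanoTLZ tumor C3698, which is not particular to them, since 20 of the 37 genes were. Each promoter runs from 250 bases before to 50 bases after the transcription start site in GRCm38.p6 (RefSeq), 5′ to 3′ on the strand of the gene. Capitals mark exact matches, on either strand, of 6 short motifs that are spelled out after the sequences.
Cd3g, chr9:44980382-44980681, minus strand: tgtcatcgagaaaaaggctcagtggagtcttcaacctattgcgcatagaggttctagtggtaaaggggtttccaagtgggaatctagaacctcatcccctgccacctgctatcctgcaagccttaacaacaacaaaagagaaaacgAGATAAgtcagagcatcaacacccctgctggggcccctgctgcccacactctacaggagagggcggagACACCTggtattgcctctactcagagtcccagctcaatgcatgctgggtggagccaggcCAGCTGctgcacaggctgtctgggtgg
Cd3d, chr9:44981536-44981835, plus strand: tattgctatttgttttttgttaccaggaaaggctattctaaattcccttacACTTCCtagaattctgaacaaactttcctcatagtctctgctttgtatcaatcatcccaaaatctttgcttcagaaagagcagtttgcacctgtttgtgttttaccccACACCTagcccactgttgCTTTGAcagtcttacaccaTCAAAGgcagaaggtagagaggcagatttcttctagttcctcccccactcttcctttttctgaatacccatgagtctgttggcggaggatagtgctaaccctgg
Cd3e, chr9:45009562-45009861, minus strand: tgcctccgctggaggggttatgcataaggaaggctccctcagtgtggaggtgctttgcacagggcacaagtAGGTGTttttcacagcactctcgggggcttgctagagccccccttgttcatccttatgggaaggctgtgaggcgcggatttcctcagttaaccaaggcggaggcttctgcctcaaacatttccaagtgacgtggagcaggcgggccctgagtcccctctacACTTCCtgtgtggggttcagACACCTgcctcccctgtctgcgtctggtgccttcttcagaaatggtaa
Nkg7, chr7:43436888-43437187, plus strand: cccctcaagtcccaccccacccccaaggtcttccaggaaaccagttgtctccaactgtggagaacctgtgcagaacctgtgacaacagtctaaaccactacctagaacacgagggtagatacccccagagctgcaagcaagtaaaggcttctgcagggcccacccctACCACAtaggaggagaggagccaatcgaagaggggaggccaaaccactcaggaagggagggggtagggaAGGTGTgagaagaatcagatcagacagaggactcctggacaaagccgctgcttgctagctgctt
Prf1, chr10:61297586-61297885, plus strand: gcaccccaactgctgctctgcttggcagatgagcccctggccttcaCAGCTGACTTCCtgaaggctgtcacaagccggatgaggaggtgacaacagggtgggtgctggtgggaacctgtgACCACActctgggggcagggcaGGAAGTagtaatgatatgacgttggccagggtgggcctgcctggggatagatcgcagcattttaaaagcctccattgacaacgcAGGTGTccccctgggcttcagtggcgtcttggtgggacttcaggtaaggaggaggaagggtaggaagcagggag

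The T-box letters AGGTGT, named for the family of Eomes and Tbx21, occurred in all 5 of these windows. They lay at -36 in Cd3g, at -91 in Cd3d, at -179 and 3 in Cd3e, at -14 in Nkg7 and at -24 in Prf1, counted from the start site. In Prf1 the letters of E-box and ETS lie directly beside each other and are printed as 1 run of capitals. Over the 24 of the 37 genes that the RefSeq promoter table holds, with 30 promoters, the T-box letters were present in 8 promoters, against 13.7% of all 32851 promoters of this length. The RUNX letters TGTGGT were present in 11 of the 30 and in 16.8% of all. The ETS letters GGAAGT were present in 13 of the 30 and in 23.8% of all. E-box letters, CAGCTG, were found in 7 of the 30 and in 16.3% of all. TCF letters, CTTTGA, were found in 6 and in 16% of all, and GATA letters, AGATAA, in 2 and in 11.2% of all. A match describes these letters only and is no evidence of binding.

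The counts of a tumor summed to 17538380 to 21194980, and the median was 19747343. Levels are given as CPM (counts relative to library size) after TMM scaling, in which 3 counts, taken as the floor, amount to 0.138 to 0.172 CPM. Such floors cover counting error only. After edgeR's filter on low counts 15821 genes were tested in 1 fit to all 9 tumors, with an adjusted p under 0.05 as the threshold. Of the 37 genes, 30 passed the filter, and Sh2d1a, Icos, Gzma, Ifng, Ncr1, Klrk1 and Klrd1 did not. Cd3d, Cd28, Foxp3, Gzmb, Gzmk and Prf1 reached the filter level in 3 tumors only when the NanoTLZ tumors were counted, so a count over the 30 is a description and not support for a direction. The common biological coefficient of variation was 49.83%. Mammary epithelial genes (8 on the list, among them Epcam, Krt8 and Krt18) summed to 3462 to 7790 CPM in the 9 tumors, and the labeled tissue was therefore present in each. Skeletal muscle genes (7 on the list) summed to 23.1 to 655 CPM in the saline tumors and 1.69 to 4.09 CPM in the treated tumors, with the highest sum in A3688, and their part in the results was not tested. In bulk tumor RNA, fewer cells of a type and less RNA per cell cannot be told apart.

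After NanoTLZ, most T cell genes had higher values than in saline, but none of the 30 passed the test. The fitted change was above 0 for 27 of the 30 genes (as for 43.9% of all 15821 tested genes) and below 0 for Gzmb, Tcf7 and Klrb1c (56.1%). The median log2 fold change of the 30 was 1.46, ranging from -1.98 to 2.39, beside a median of -0.09 over all tested genes. With no filter on low counts, 34 of all 37 genes were above 0, as were 46.03% of all 25483 genes with a count. The median of the 37 was then 1.42, beside a median of 0 over those 25483 genes. edgeR called 0 of the 30 genes at an adjusted p under 0.05, where 0.00632% of all tested genes were called, and the smallest adjusted p among them was 0.552. Without adjustment, 5 of the 30 had a p under 0.05, each with higher counts after NanoTLZ, where 3.51% of all tested genes were higher and 5.49% lower at that level. DESeq2 called 0 of them when fitted to all 9 tumors, where 0.438% of all genes were called, and 1, Ms4a4b, when fitted to only these 2 groups, where 0.709% were.

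**Figure D1:**
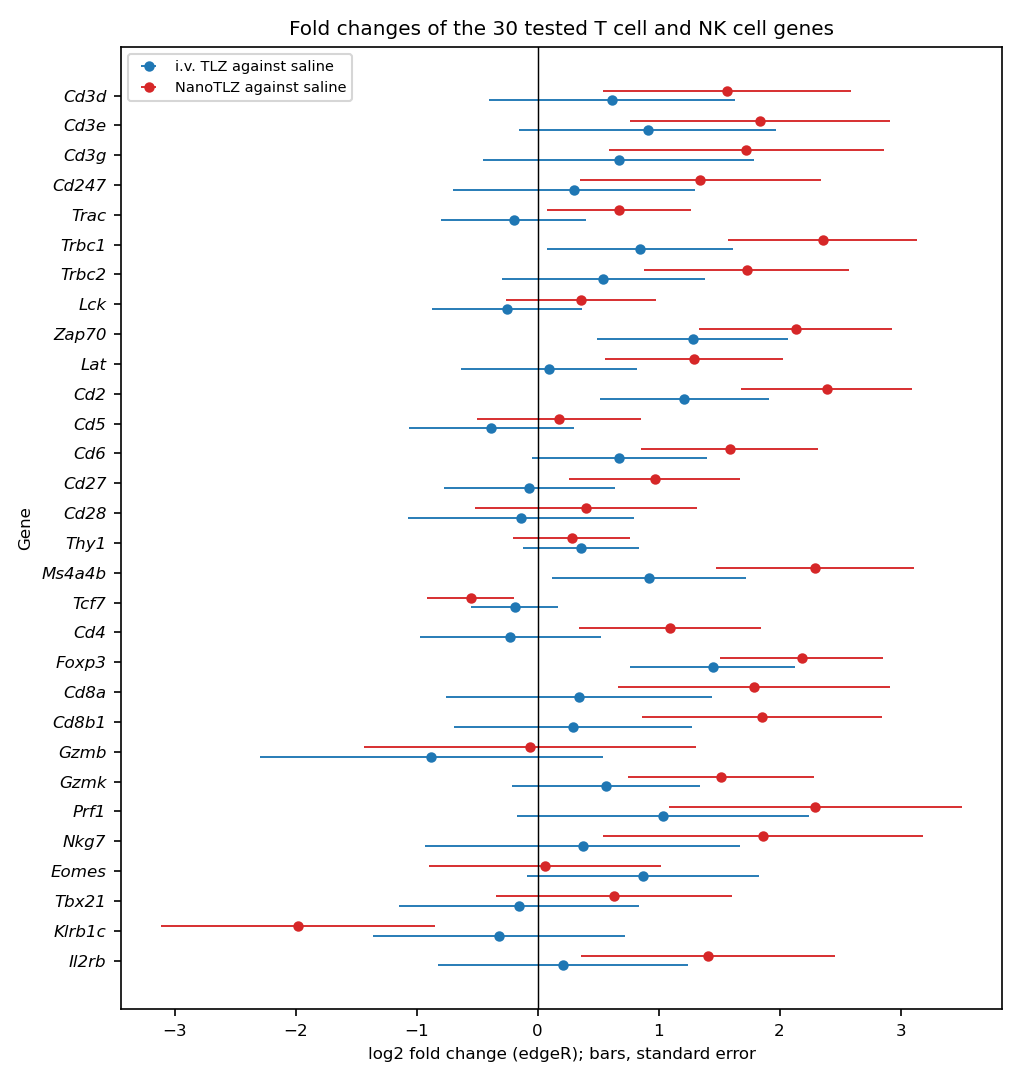
Log2 fold changes (x axis) of the 30 tested T cell and NK cell genes (y axis) for i.v. TLZ (blue) and NanoTLZ (red) against saline. Points are edgeR estimates, bars are 1 standard error, and the vertical line marks no change. NanoTLZ points lie to the right of the line for 27 genes and i.v. TLZ points for 20, none of them called.

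In the values of single tumors, 13 of all 37 genes had all 3 NanoTLZ tumors above all 3 saline tumors and 1, Tcf7, had them all below. Among the 25483 genes with any count, 6.26% were separated upward in this way and 5.83% downward. Of the 30 tested genes, 11 were separated upward, against 7.82% of all tested genes, and 1 downward, against 8.13%. The 13 were Cd3d, Cd247, Trbc1, Trbc2, Zap70, Sh2d1a, Cd2, Cd6, Cd27, Ms4a4b, Foxp3, Cd8b1 and Gzma. For Cd3d, Trbc1, Cd6, Cd27 and Cd8b1, C3669 had fewer raw counts than A3685, such as 25 against 26 for Cd3d. Gzma had 2 counts in both A3688 and C3698. The separation of these genes appears only after scaling for library size. Which tumors were high or low was shared across most genes. C3698 was the highest of the 9 tumors for 20 of the 37 genes and C3519 for 10, while B3684 was the lowest for 16 and A3688 for 11, ties included. The median rank of the genes, from 1 (lowest) to 9 (highest), was 3, 5 and 2 in the saline tumors A3673, A3685 and A3688, 7, 2 and 4 in the i.v. TLZ tumors B3638, B3684 and B3700, and 8, 5 and 9 in the NanoTLZ tumors C3519, C3669 and C3698. A3685 (saline) and C3669 (NanoTLZ) therefore held the same middle rank. Without A3685, 20 of the 37 genes were separated upward (12.9% of all genes with a count), and without C3669, 25 of the 37 were (10.7%). A3685 ranked highest in saline and C3669 lowest in NanoTLZ, so these rises follow from that order and are no support for a difference. The number was 14 without A3673 (11.1%), 16 without A3688 (10.8%), 13 without C3519 (9.67%) and 14 without C3698 (9.67%).

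**Figure D2:**
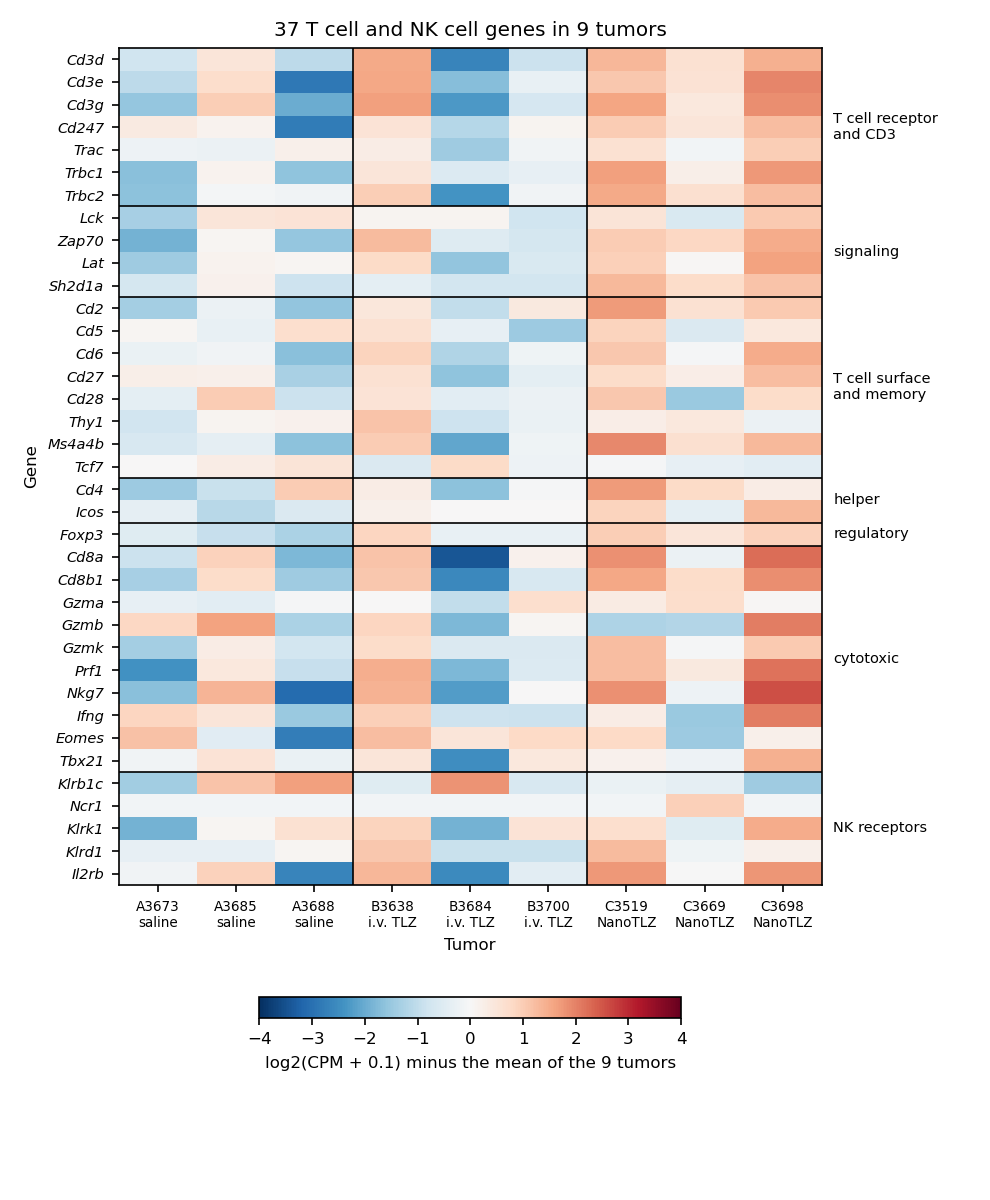
Levels of the 37 T cell and NK cell genes (rows, by role) in each of the 9 tumors (columns, by group). Color gives log2(CPM + 0.1) minus the mean of the 9 tumors for that gene, from blue (lower) to red (higher). B3638, C3519 and C3698 are red over most T cell rows and B3684 and A3688 blue, while Thy1, Tcf7, Eomes and Klrb1c follow other patterns.

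Cd3e, a signaling subunit of the receptor complex that every mature T cell carries, had 10, 45 and 2 counts in A3673, A3685 and A3688, 81, 6 and 19 in B3638, B3684 and B3700, and 59, 36 and 102 in C3519, C3669 and C3698. The means were 0.936 ± 1.07 CPM in saline, 1.76 ± 1.91 with i.v. TLZ and 3.36 ± 1.72 in NanoTLZ (SD, n = 3 each). The saline tumor A3685 lay above the NanoTLZ tumor C3669, and the groups overlapped. After NanoTLZ its log2 fold change was 1.84 (SE 1.07), which did not pass the quasi-likelihood test of edgeR (adjusted p = 0.608). Its neighbors Cd3g and Cd3d gave a similar order of the tumors. Cd3g had 6, 51 and 5 counts in saline, 81, 3 and 13 with i.v. TLZ and 78, 30 and 89 in NanoTLZ, and Cd3d had 8, 26 and 8, then 55, 1 and 8, then 48, 25 and 48. Both were low in B3684 and A3688 and high in B3638, C3519 and C3698. The chain Cd247 (CD3 zeta) was listed at 0 counts in A3688 and had at most 30 counts in any tumor. Its exons overlap those of Pou2f1 on the other strand over 3007 bases. The strand setting of the counting is not given in the sources used here, so reads of the pair cannot be told apart, although Pou2f1 itself had only 24 counts over the 9 tumors.

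Of the constant regions of the receptor, Trbc1 was the gene with the larger difference. It had 3, 18 and 4 counts in saline, 23, 9 and 11 with i.v. TLZ and 54, 17 and 54 in NanoTLZ. Mean levels were 0.404 ± 0.393, 0.734 ± 0.334 and 2.11 ± 1.03 CPM (SD, n = 3). The NanoTLZ tumors lay above the saline tumors, although C3669 exceeded A3685 by little, at 0.928 against 0.858 CPM. Its log2 fold change was 2.36 (SE 0.78) and the adjusted p of edgeR 0.552 (0.0127 before adjustment). Trbc2, the other beta chain constant region, had 6, 25 and 25, then 54, 3 and 21, then 80, 37 and 60 counts. Trac, of the alpha chain, had 18 to 30 counts in saline, 7 to 31 with i.v. TLZ and 20 to 48 in NanoTLZ, and its change after NanoTLZ was 0.67 (SE 0.60). Trbc1 and Trbc2 are near copies: over 521 aligned transcript bases 498 were identical (95.59%), so reads inside identical stretches cannot be assigned to either gene, and the split of counts between the 2 genes is uncertain.

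Among the signaling genes, Zap70, the kinase recruited to the receptor, had 4, 25 and 7 counts in saline, 59, 14 and 12 with i.v. TLZ and 49, 38 and 64 in NanoTLZ. Its mean was 0.580 ± 0.531 CPM in saline, 1.42 ± 1.24 with i.v. TLZ and 2.58 ± 0.648 in NanoTLZ (SD, n = 3), with no overlap between saline and NanoTLZ. Its log2 fold change of 2.13 (SE 0.80) had an edgeR p of 0.0235 and an adjusted p of 0.552. Lat, the adaptor, had a change of 1.29 (SE 0.73) with overlapping groups. Lck did not follow this order. It had 138 counts in A3688, where Cd3e had 2, and 86 in B3684, where Cd3e had 6, and its change after NanoTLZ was 0.36 (SE 0.62). Sh2d1a, the adaptor SAP, was at or under 11 counts everywhere, with 1 to 4 in saline, 1 or 2 with i.v. TLZ and 6 to 11 in NanoTLZ. Its exons overlap those of Tenm1 on the other strand over 1465 bases (149 counts over the 9 tumors). How reads there were counted is not given in the sources used here.

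**Figure D3:**
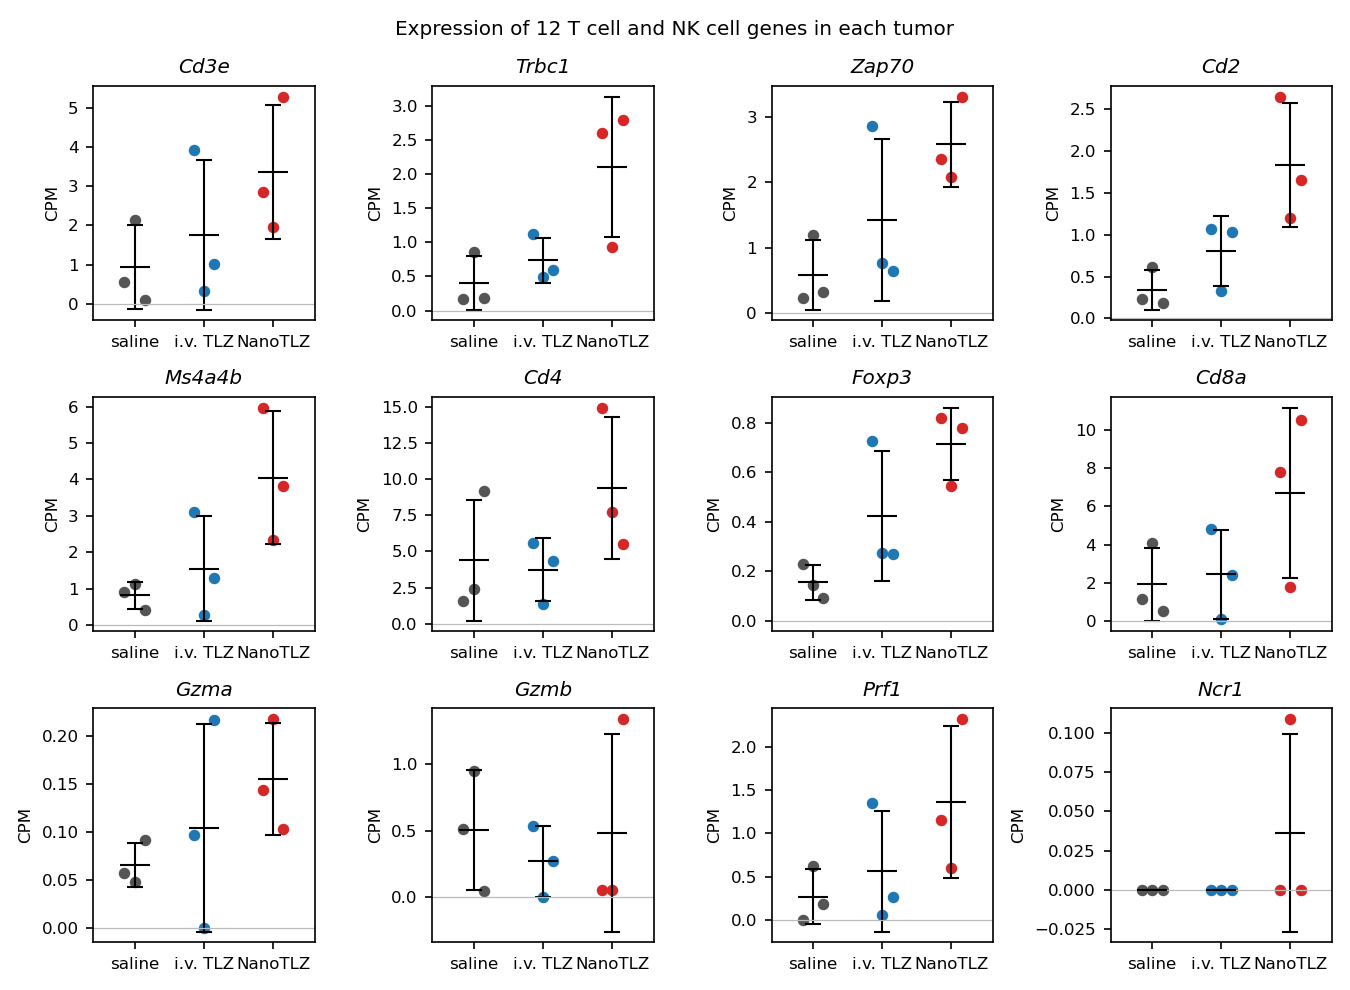
CPM (y axes, 1 panel per gene with its own scale) of 12 T cell and NK cell genes in the saline, i.v. TLZ and NanoTLZ tumors. Each point is 1 tumor, and bars give the mean and SD of 3 tumors. NanoTLZ points lie above all saline points for Trbc1, Zap70, Cd2, Ms4a4b, Foxp3 and Gzma, the last at or under 4 counts, and overlap them for Cd3e, Cd4, Cd8a, Gzmb, Prf1 and Ncr1.

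Surface genes of T cells included the smallest p of the whole set. Cd2, an adhesion receptor of T and NK cells, had 4, 13 and 4 counts in saline, 22, 6 and 19 with i.v. TLZ and 55, 22 and 32 in NanoTLZ. That is 0.344 ± 0.240, 0.807 ± 0.416 and 1.83 ± 0.740 CPM (SD, n = 3). The NanoTLZ tumors lay above every other tumor. Against saline the log2 fold change was 2.39 (SE 0.71), with an edgeR p of 0.0070 that became 0.552 after adjustment over all tested genes. Ms4a4b, a membrane protein of T cells, had 16, 24 and 9 counts in saline, 64, 5 and 24 with i.v. TLZ and 124, 43 and 74 in NanoTLZ. Its mean was 0.824 ± 0.374 CPM in saline, 1.56 ± 1.43 with i.v. TLZ and 4.05 ± 1.82 in NanoTLZ (SD, n = 3). The i.v. TLZ group spanned both the lowest value of all tumors and 1 above the lowest NanoTLZ tumor. The log2 fold change after NanoTLZ was 2.29 (SE 0.82) with an adjusted p of 0.552 in edgeR, and Ms4a4b was called in a DESeq2 fit to the 2 groups alone (adjusted p = 0.0335).

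Other surface genes had smaller differences. Cd6 (log2 fold change 1.59, SE 0.73) and the costimulatory receptor Cd27 (0.97, SE 0.71) had NanoTLZ tumors above saline tumors, whereas Cd5 (0.18, SE 0.67) and Cd28 (0.40, SE 0.92) overlapped. Thy1 and Tcf7 were the most abundant of the 37 genes per length, at 20.04 and 16.7 CPM per kb of exon over the 9 tumors, and no other member exceeded 2.50 (Trbc2). Thy1 had 573 counts in B3684 and 1354 in A3688, tumors in which Cd3e had 6 and 2. Thy1 is also a gene of fibroblasts. Of the 7 fibroblast genes on the list, all tested, 6 were above 0 after NanoTLZ (43.9% of all tested genes were). They summed to 1446 to 2063 CPM in saline, 990 to 6016 with i.v. TLZ and 1703 to 3100 in NanoTLZ. Thy1 and the list were both at their highest in B3638 and both at their lowest in B3684. The part of fibroblasts in the Thy1 level was not tested. Tcf7, which encodes TCF1, a factor of naive and memory T cells, had 732, 1086 and 1311 counts in saline, 571, 1297 and 669 with i.v. TLZ and 847, 606 and 600 in NanoTLZ. Its NanoTLZ tumors were all below its saline tumors, at 35.0 ± 5.13 against 51.3 ± 9.14 CPM (SD, n = 3), with a log2 fold change of -0.55 (SE 0.36, edgeR adjusted p = 0.629). The raw counts of the groups overlap, and the order appears only with the TMM factors, 0.886 in A3673 and 1.02 in C3519. These 2 tumors then lay at 41.9 and 40.8 CPM. Tcf7 was at its highest counts in A3688 and B3684, where Cd3e had 2 and 6, and so did not follow the CD3 genes. The cells that its transcripts came from were not tested.

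The helper gene Cd4 had 28, 50 and 200 counts in saline, 115, 25 and 80 with i.v. TLZ and 310, 141 and 107 in NanoTLZ. Its means were 4.39 ± 4.17, 3.76 ± 2.16 and 9.38 ± 4.92 CPM (SD, n = 3). The groups overlapped, with A3688 the highest saline tumor, whereas its CD3 genes were among the lowest of all tumors. The log2 fold change after NanoTLZ was 1.09 (SE 0.75, edgeR adjusted p = 0.651). CD4 is also carried by some macrophages and dendritic cells. Macrophage genes were above 0 after NanoTLZ for 8 of 8 (43.9% of all tested genes were). Of these, 3 had a p under 0.05 (3.51% of all were higher at that level) and none was called. They summed to 808 to 3206 CPM in saline, 1935 to 3657 with i.v. TLZ and 4295 to 5253 in NanoTLZ. Lyz2 weighed heavily in this sum, at 192 to 1573 CPM in saline and 2260 to 3642 CPM in NanoTLZ. Csf1r of the same list overlapped, with A3685 at 328 and C3669 at 314 CPM. The sum was about equally low in A3673 (808.3) and A3688 (807.6), but Lyz2 was not, at 192 and 406 CPM. These were the saline tumors with the fewest and the most Cd4 counts. The part of macrophages in the Cd4 level was not tested. Icos, a costimulator of helper cells, had 4, 2 and 4 counts in saline, 8, 6 and 6 with i.v. TLZ and 14, 4 and 18 in NanoTLZ. It did not pass the filter.

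Foxp3 was the 1 gene of the 30 tested genes with every treated tumor above every saline tumor (2.81% of all tested genes were so separated, and 2.66% the other way). It had 4, 3 and 2 counts in A3673, A3685 and A3688, 15, 5 and 5 in B3638, B3684 and B3700, and 17, 10 and 15 in C3519, C3669 and C3698. The levels were 0.155 ± 0.0693 CPM in saline, 0.424 ± 0.263 with i.v. TLZ and 0.713 ± 0.147 in NanoTLZ (SD, n = 3). The saline values lay near the floor of 3 counts, and the highest saline and the lowest i.v. TLZ tumors had 4 and 5 counts. The log2 fold change was 1.45 (SE 0.68) after i.v. TLZ, 2.18 (SE 0.67) after NanoTLZ and 1.81 (SE 0.62) for the mean of both treated groups, with edgeR p-values of 0.0590, 0.0089 and 0.0148 before and 0.494, 0.552 and 0.294 after adjustment. Foxp3 passed the filter only through the NanoTLZ tumors, with 0 saline tumors and 1 i.v. TLZ tumor at the filter level, so it was tested because it was high there and these p-values are not support for a difference. Foxp3 exons overlap those of Flicr on the same strand over 853 bases (59 counts over the 9 tumors). On the other strand they overlap Ccdc22 over 590 bases (0 counts), Gm36995 over 373 bases (not among the counted genes) and Ppp1r3f over 266 bases (1070 counts). How reads at these overlaps were counted is not given in the sources used here. Of 11 other genes of regulatory T cells, 8 were tested. After NanoTLZ 6 were above 0 (43.9% of all tested genes were) and 2 below, with a median of 0.56. Ikzf2 (Helios) was lower and the activation receptor Tnfrsf9 higher, with log2 fold changes of -0.83 (SE 0.42) and 1.92 (SE 0.95), and neither was called. Ikzf2 was at 24.5 CPM in A3688, where Foxp3 was at 0.0918 CPM. Tnfrsf9 was at 27.0 CPM in B3684, where Foxp3 was at 0.273 CPM. The cells that these transcripts came from were not tested, so the list is no measure of regulatory T cells.

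Both chains of CD8 had their highest values in NanoTLZ tumors. Cd8a had 20, 86 and 12 counts in saline, 99, 2 and 45 with i.v. TLZ and 162, 33 and 203 in NanoTLZ, or 1.93 ± 1.90, 2.45 ± 2.34 and 6.70 ± 4.45 CPM (SD, n = 3). C3669 lay below A3685, so the groups overlapped. The log2 fold change after NanoTLZ was 1.79 (SE 1.12, edgeR adjusted p = 0.622). Cd8b1 had 7, 41 and 8 counts in saline, 52, 2 and 13 with i.v. TLZ and 74, 36 and 85 in NanoTLZ, and its change was 1.86 (SE 0.99) with the lowest NanoTLZ tumor at 1.96 and the highest saline tumor at 1.95 CPM.

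Values of the killing genes differed from each other. Prf1 (perforin) had 0, 13 and 4 counts in saline, 28, 1 and 5 with i.v. TLZ and 24, 11 and 45 in NanoTLZ, or 0.268 ± 0.318, 0.561 ± 0.698 and 1.36 ± 0.882 CPM (SD, n = 3). C3669 and A3685 were level at 0.600 and 0.620 CPM, and the log2 fold change of 2.30 (SE 1.21) after NanoTLZ had an edgeR adjusted p of 0.582. Gzmb (granzyme B) had 9, 20 and 1 counts in saline, 11, 0 and 5 with i.v. TLZ and 1, 1 and 26 in NanoTLZ, and it did not pass the test in any comparison (log2 fold change -0.06 after NanoTLZ, SE 1.37, adjusted p = 0.993). In the NanoTLZ tumors C3519 and C3669 Gzmb was at 1 count although Cd8a had 162 and 33. The Gzmb change after NanoTLZ rested on single tumors: it was -3.12 without C3698 and 0.80 without A3685. Gzma (granzyme A) was at or under 4 counts in every tumor and did not pass the filter. With no filter its log2 fold change after NanoTLZ was 1.17 (edgeR adjusted p = 0.765). Nkg7, a granule protein of cytotoxic cells, ranged from 1 to 65 counts in saline, 3 to 65 with i.v. TLZ and 18 to 140 in NanoTLZ (log2 fold change 1.86, SE 1.32). Gzmk had a change of 1.52 (SE 0.77). Ifng (interferon gamma) reached 20 counts in C3698 and at most 9 elsewhere. Of the T-box factors, Tbx21 had a change of 0.63 (SE 0.97) and Eomes of 0.06 (SE 0.96), with Eomes at 50 counts in A3673 and 2 in A3688.

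Of the NK receptors, Ncr1 was at the floor and the others were low or shared with T cells. Ncr1 was listed at 0 counts in 8 tumors and at 2 in C3669, which is under the 3 counts that a count of 0 allows. Klrd1 (CD94) had 3 to 22 counts and Klrk1 (NKG2D) 0 to 18, and both also occur on activated CD8 T cells. Klrb1c (NK1.1) had 1, 17 and 26 counts in saline, 4, 24 and 3 with i.v. TLZ and 5, 4 and 1 in NanoTLZ, a log2 fold change of -1.98 (SE 1.13, edgeR adjusted p = 0.601). It was highest in A3688 and B3684, tumors that were among the 3 lowest for 24 and 27 of the 37 genes. Il2rb, the interleukin 2 receptor chain shared by NK cells and T cells, had 53, 135 and 10 counts in saline, 175, 9 and 46 with i.v. TLZ and 238, 60 and 225 in NanoTLZ (log2 fold change 1.41, SE 1.05), and was high in the same tumors as the CD3 genes.

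In the i.v. TLZ tumors, 20 of the 30 genes were above and 10 below saline (47.6% and 52.4% of all tested genes were), with a median log2 fold change of 0.35 and a range from -0.88 to 1.45. edgeR called 0 of the 30, as it did of all tested genes (0.00%), and 0 of them had a p under 0.05 before adjustment, where 4.91% of all tested genes were higher and 5.47% lower at that level. DESeq2 called 0 of them both when fitted to all 9 tumors, where 0.773% of all genes were called, and when fitted to these 2 groups, where 0.380% were. Foxp3 was the 1 tested gene whose i.v. TLZ tumors all lay above the saline tumors (5.99% of all tested genes did, and 5.20% all below), and Icos, not tested, was separated as well. The 3 tumors of this group were uneven. B3638 was among the 3 highest tumors for 28 of the 37 genes and B3684 among the 3 lowest for 27. Without B3638 the median log2 fold change turned to -0.46, and that of Cd3e to -0.46, of Cd8a to -0.60, of Prf1 to -0.72 and of Ms4a4b to -0.066. Cd4 turned from -0.22 to 0.92 without the saline tumor A3688 and to 0.17 without B3684.

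Between NanoTLZ and i.v. TLZ, which were given at the same dose, 26 of the 30 genes were higher after NanoTLZ (45.6% of all tested genes were), with a median log2 fold change of 0.95. edgeR called 0 of the 30 and of all tested genes (0.00%), and 0 of the 30 had a p under 0.05 before adjustment, where 0.449% of all tested genes were higher and 1.23% lower at that level. DESeq2 called 0 of the 30 when fitted to all 9 tumors (0.0119% of all genes were called) or to these 2 groups (0.0855%). Cd2 was the 1 tested gene with all NanoTLZ above all i.v. TLZ tumors (3.20% of all tested genes were, and 4.41% were all below), from 1.20 to 2.65 against 0.328 to 1.07 CPM, with a log2 fold change of 1.18 (SE 0.67). The largest increase was that of Cd8b1, at 1.56 (SE 0.98), and the largest decrease that of Klrb1c, at -1.66 (SE 1.14). For both treated groups together against saline, 26 of the 30 genes were above 0 (46.0% of all), the median was 0.93 (0.34 without B3638), 0 of the 30 were called (0.0190% of all tested genes were, 0.0126% as lower), and Foxp3, Cd2, Zap70 and Trbc1 had a p under 0.05 before adjustment, where 4.80% of all were higher and 8.29% lower at that level.

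Subset genes were also set against each other within each tumor. Log2 ratios of CPM (prior count 2) in the 6 treated and the 3 saline tumors were tested with a two-sided exact permutation over 84 splits, whose smallest p is 0.0119, and p-values were adjusted over 4 ratios. The ratio of Cd8a to Cd4 was -1.17 ± 2.38 in saline, -1.27 ± 1.35 with i.v. TLZ and -0.68 ± 1.49 in NanoTLZ (SD, n = 3), a difference of 0.20 (exact p = 0.869). The ratio of Foxp3 to Cd3e was -1.41 ± 1.63, -1.36 ± 1.06 and -1.99 ± 0.54, a difference of -0.27 (exact p = 0.738). Without A3688 these differences turned to -1.13 and 0.43, and that of Cd8a to Cd4 also turned, to -0.18, without C3698. Gzmb to Cd3e was -0.54 ± 0.50 in saline, -2.11 ± 0.53 with i.v. TLZ and -3.30 ± 1.25 in NanoTLZ (SD, n = 3). All 6 treated tumors lay below all 3 saline tumors, a difference of -2.17 (exact p = 0.0238, adjusted p = 0.0952), which did not pass the threshold after adjustment. Without B3638 or any 1 saline tumor the unadjusted exact p was 0.0536 to 0.0714. Fewer splits are then possible and the smallest possible p is larger than 0.0119, so these values cannot be compared with the p of all 9 tumors. This ratio rests on few counts: in A3688 it sets 1 count of Gzmb against 2 of Cd3e, and 4 of the 9 tumors had at most 1 count of Gzmb. The ratio of Ncr1 to Cd3e could not be read, since Ncr1 was at 0 in 8 tumors.

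**Figure D4:**
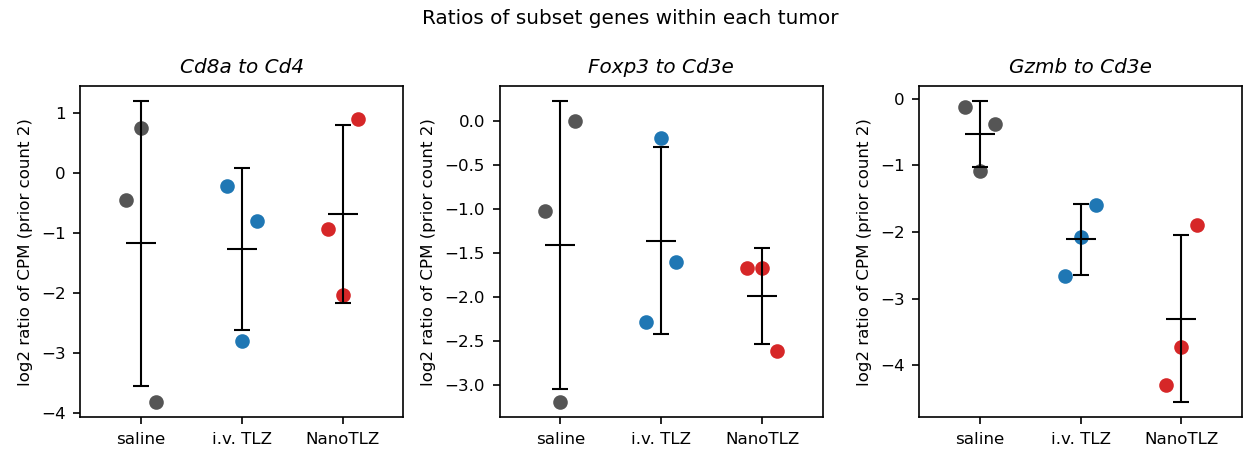
Log2 ratios of CPM (y axes, prior count 2) of Cd8a to Cd4, Foxp3 to Cd3e and Gzmb to Cd3e in each tumor of the saline, i.v. TLZ and NanoTLZ groups. Points are tumors, and bars the mean and SD of 3 tumors. The groups overlap for the ratios to the left and in the middle, and all 6 treated tumors are below the 3 saline tumors for Gzmb to Cd3e.

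The CD3 genes were also set against Ptprc, which encodes CD45 and is carried by all leukocytes. Ptprc itself was 54.8 ± 37.2 CPM in saline, 45.1 ± 20.2 with i.v. TLZ and 73.4 ± 20.1 in NanoTLZ (SD, n = 3), with a log2 fold change of 0.42 (SE 0.58) after NanoTLZ. Cd3d, Cd3e and Cd3g together amounted to 2.14, 6.73 and 5.00 CPM per 100 CPM of Ptprc in the saline tumors A3673, A3685 and A3688. They amounted to 15.9, 2.11 and 4.99 in the i.v. TLZ tumors B3638, B3684 and B3700, and to 11.6, 9.57 and 13.5 in the NanoTLZ tumors C3519, C3669 and C3698. The group values were 4.62 ± 2.32, 7.67 ± 7.28 and 11.6 ± 1.96 (SD, n = 3). All NanoTLZ tumors thus exceeded all saline tumors, whereas the CD3 sum itself overlapped, at 0.688 to 5.81 CPM in saline and 4.97 to 12.4 CPM in NanoTLZ. This ratio was chosen after the values were seen and is given with no test. A3688 had the least Ptprc, 13.8 CPM with a CD3 sum of 0.688 CPM, and its ratio lay between those of the other saline tumors.

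**Figure D5:**
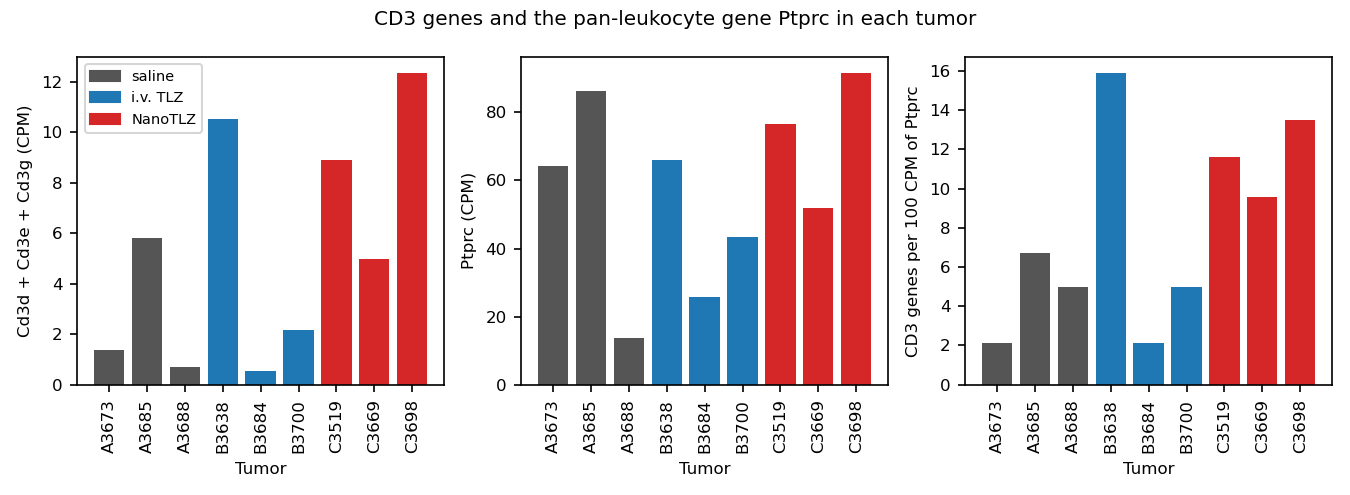
Summed CPM of Cd3d, Cd3e and Cd3g (left), CPM of Ptprc (middle) and the CD3 sum per 100 CPM of Ptprc (right) in each tumor (x axes), as bars from 0 colored by group. In the right panel the NanoTLZ tumors stand between 9.57 and 13.5, above the saline tumors at 2.14 to 6.73, and the i.v. TLZ tumors reach from 2.11 to 15.9.

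Lists of other genes were read beside the 37. They passed through the same filter, and some, such as Pax5 on the B cell list, reached it only when NanoTLZ tumors were counted. Counts over these lists are therefore descriptions and not support for a direction. Of all tested genes, 43.9% were above 0 after NanoTLZ and 56.1% below. At a p under 0.05 before adjustment, 3.51% of all were higher and 5.49% lower. Among 39 other T and NK cell genes, 29 were tested and 23 were above 0 after NanoTLZ, with a median log2 fold change of 1.19, 7 with a p under 0.05 before adjustment and none called. Il7r, the receptor of the survival factor interleukin 7, had a change of 1.89 (SE 0.65) and the chemokine Ccl5 of 1.93 (SE 0.73). The 8 pan-leukocyte genes, Ptprc among them, had a median of 0.47 with 7 above 0. Genes of naive and lymph node homing cells were above 0 for 6 of 6 tested (median 1.05). Igfbp4 alone made up 72.4% to 96.2% of this list. Without it the list summed to 18.0 to 35.9 CPM in saline, 20.9 to 68.1 with i.v. TLZ and 39.4 to 52.7 in NanoTLZ. Mammary fat pads hold a lymph node. Of genes of lymph node stroma and follicles, 3 of 5 tested were above 0. Clu, which other cells also express, made up 95.5% to 99.7% of this list. Without it the list summed to 0.413 to 29.8 CPM in saline, 5.69 to 17 with i.v. TLZ and 18.7 to 36.0 in NanoTLZ. Of the 29.8 CPM, in A3673, Glycam1 alone gave 28.4 CPM. Glycam1 was at 8.29 and 0 CPM in A3685 and A3688, and at 0.770, 0.109 and 13.9 CPM in C3519, C3669 and C3698. The cells that Glycam1 transcripts came from were not tested. The lymph node chemokine Ccl21a was at 0 to 0.524 CPM in saline and 0.0517 to 1.59 CPM in NanoTLZ. B cell genes (5 of 5 tested above 0, median 1.98, 2 with a p under 0.05) summed to 3.19 to 4.91 CPM in saline, 2.76 to 9.40 with i.v. TLZ and 3.77 to 21.6 in NanoTLZ, and were highest in C3519 and B3638, which were also high in T cell genes. Dendritic cell genes were above 0 for 5 of 6 tested (median 1.19), plasma cell genes for 3 of 5 (1.21), neutrophil genes for 2 of 5 (-0.20) and innate lymphoid and mast cell genes for 3 of 5 (0.02). Mammary epithelial genes were above 0 for 1 of 8 (-0.30) and proliferation genes for 0 of 6 (-1.34). edgeR called none of the genes on these lists after NanoTLZ. DESeq2 called the B cell gene Cd79a as higher when fitted to all 9 tumors, where 0.438% of all genes were called. Fitted to the 2 groups, where 0.709% were called, it called the plasma cell genes Igkc and Jchain and the fibroblast gene Pdgfra as higher. In both fits it called 6 skeletal muscle genes as lower. The part of a lymph node, or of other leukocytes, in the T cell values was not tested.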

How the data were processed

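RNA of 9 tumors (3 per group) was isolated with the RNeasy Mini Kit, and RNAseq and its primary analysis were performed by Novogene. The deposited values are unnormalized read counts for each gene in each tumor. The submitters' processing notes name TopHat2, DESeq2 and the mm10 build; versions, the counting program, annotation and strand setting are not given in the sources used here. Symbols and positions came from GENCODE M21 (GRCm38), and promoters from RefSeq (GRCm38.p6). Groups came from the labels, which give no batch, and nothing beyond the labels says whether tumors shared a litter.

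Genes were kept with filterByExpr (minimum count 10, minimum total 15), scaled by TMM and fitted with 1 coefficient per group to all 9 tumors by the quasi-likelihood test of edgeR 4.0.16 in R 4.3.3. Benjamini-Hochberg adjustment ran over all 15821 tested genes. Ratios were tested by exact permutation. Alternatives were DESeq2 1.42.0, upper quartile and RLE normalization, edgeR on the compared groups alone, other filters, other prior counts and each tumor left out. Overlap with each tumor left out, lists without their leading gene and the CD3 to Ptprc ratio were added after the data were seen. The edgeR fit was tested on simulated data. Named genes were Cd3e, Cd4, Foxp3, Cd8a, Gzma, Gzmb, Prf1 and Ncr1, and genes with a p under 0.05 in any comparison, in every tumor. Other members are given by role. For other lists, the plan was to name at most 2 genes, by smallest p for both treated groups against saline. Epcam, Krt8, Krt18, Csf1r, Ptprc, Clu, Ccl21a and Igfbp4 were named outside this plan. The 37 genes and all lists were chosen with earlier results of these data known. Python 3.11.15, numpy 2.4.6, pandas 2.3.3 and matplotlib 3.10.9 were used for sums and figures.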

Additional observations from a re-analysis of the deposited data

Results flagged for a closer look

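For Sh2d1a, every i.v. TLZ tumor lay on one side of the saline mean of 0.0979 CPM and every NanoTLZ tumor on the other, with differences of -0.03 and 0.34 CPM that are 0.372 CPM apart. The difference after i.v. TLZ is smaller than the worth of 1 count and the levels in saline and after i.v. TLZ are at 1 to 4 counts per tumor, so no decrease is shown. The gene did not pass the filter, and the difference between the treated groups was not tested. Its exons also overlap those of Tenm1 on the other strand, and reads of the pair cannot be told apart.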

How the results depend on the processing

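No paired analysis was possible because the labels give the tumors of different groups no shared replicate numbers. No member was called under any alternative except Ms4a4b after NanoTLZ with DESeq2 on the 2 groups (1 member). The number of all genes called moved with the tool: after i.v. TLZ from 0 to 5 without a filter, 194 with DESeq2 on all 9 tumors and 92 with DESeq2 on the 2 groups; after NanoTLZ from 1 to 6, 110 and 171, to 0 with edgeR on the 2 groups and 0 to 3 with a tumor left out; between the treated groups from 0 to 3 and 21 with DESeq2; and for both treated groups from 3 to 33 without a filter, 1 with at least 10 counts in every tumor, 6 with edgeR on the groups compared, 273 and 366 with DESeq2 and 0 to 18 with a tumor left out. The cause was not tested. The median change of the members after NanoTLZ stayed between 1.23 and 1.82 with a tumor left out and was 0.38 with at least 10 counts in every tumor, which left 5 members. After i.v. TLZ it was -0.17 with that filter and -0.46 to 0.82 with a tumor left out, and between the treated groups 0.56 to 1.72. For both treated groups it was 0.34 with that filter and 0.34 (without B3638) to 1.16 with a tumor left out. Members separated upward after NanoTLZ numbered 13 to 25 with a tumor left out, where 9.67% to 12.9% of all genes with a count were (6.26% with all tumors). With a tumor left out, log2 fold changes after i.v. TLZ ran from -0.46 to 2.41 for Cd3e, -0.62 to 0.92 for Cd4, -0.60 to 1.53 for Cd8a, -0.72 to 2.47 for Prf1 and -0.066 to 1.41 for Ms4a4b. After NanoTLZ they ran from 1.32 to 3.34 for Cd3e, 0.60 to 2.26 for Cd4, 1.34 to 2.98 for Cd8a and 1.70 to 3.73 for Prf1. Those of Gzmb ran from -3.12 to 0.80 after NanoTLZ, -2.24 to 1.78 between the treated groups and -2.001 to 0.39 for both. The ratio of Cd8a to Cd4 ran from -1.13 to 1.16, of Foxp3 to Cd3e from -1.16 to 0.43 and of Gzmb to Cd3e from -2.45 to -1.85. For Gzmb to Cd3e the unadjusted exact p was over 0.05 without any 1 saline tumor or without B3638, where fewer splits were possible. Counts under 30 for many of these genes limit the precision of each value.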
